A study of Mus musculus with 32 samples.

Results

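The comparison set 3 libraries of tumor cells that carried a control hairpin RNA (shCTRL) against 4 libraries of tumor cells taken at week 4 of tumor growth, 7 of the 32 libraries of the study. The libraries were chosen by their labels alone. All 7 are labelled as breast cancer cells of the MMTV-PyMT cell line, which stems from a mouse model in which the polyoma virus middle T oncogene is driven in the mammary gland by the mouse mammary tumor virus promoter. The shCTRL cells came from xenografts, with the genotype given as WT and shCTRL as the only treatment. The week 4 cells came from the late stage of a time course and carry no hairpin or genotype label. The study also held tumor cells of weeks 2 and 3 (n = 3 and n = 4), tumor cells with a hairpin against Mogat1 (shMogat1, n = 3), and CD8 T cells from tumors of the same stages and from xenografts of both hairpins. The labels give neither the host strain, sex and age nor the time at which the xenografts were taken, nor whether libraries of a group came from separate animals.

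The 2 groups belong to separate experiments and separate tables. Hairpin, xenograft host, time of growth, cell preparation and scaling all change together with the group and cannot be told apart. The labels do not say whether the hairpin cells and the time-course cells are 1 line or clone, so a difference between lines cannot be told apart either. No test was made between the tables, and only large differences are described. Levels are TPM (transcripts-per-million: reads divided by the length of the gene, then by the library's sum), as the authors deposited them. A difference is the mean log2(TPM + 1) of the shCTRL libraries minus that of the week 4 libraries, so a negative difference is a lower level in shCTRL cells. It is called large at 2 or more in size, which is 4-fold, with no overlap between the 3 shCTRL and the 4 week 4 libraries. Adding 1 TPM understates the differences of genes with low levels. In such bulk libraries, fewer cells of a type and less RNA per cell cannot be told apart.

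Epithelial cells, from which mammary tumors arise, are joined by E-cadherin, claudins and desmosomes, hold keratin filaments, and keep this state through factors such as the GRHL, OVOL and ELF families and the ESRP splicing regulators. In the epithelial-mesenchymal transition, repressors of the SNAIL, ZEB and TWIST families are known to lower these genes by binding E-box elements. The cells then make vimentin, N-cadherin, fibronectin and other mesenchymal products. MMTV-PyMT tumors are known mainly as luminal epithelial tumors, and cells grown from them are known in either state.

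The 3 shCTRL libraries were close to each other. Read numbers could be recovered from the steps between the TPM values. They gave 32.9 to 40.0 megareads per shCTRL library and 25.8 to 29.7 megareads per week 4 library. Over genes with a mean of 50 or more reads, the mean chi-square per degree of freedom between libraries was 3.29 in the shCTRL group and 47.9 in the week 4 group. Counting noise alone gives a value of about 1, or up to about 2 where the 2 mates of a read pair are both counted; 68.5 percent of the low read numbers of the shCTRL libraries were even. The shCTRL libraries therefore differed by little more than counting noise, may be technical replicates, and their SD below need not hold the spread between tumors. Pearson correlations of log2(TPM + 1) over 15189 genes, given as a description, were 0.995 to 0.996 within the shCTRL group, 0.977 to 0.986 within the week 4 group and 0.82 to 0.83 between them. Mitochondrially encoded genes took 4.39 to 4.47 percent of TPM in the shCTRL libraries and 9.82 to 16.1 percent in the week 4 libraries, highest in replicate 3. The part of this gap in the differences was not tested beyond the rescaling without those genes.

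Of the 14108 genes with at least 1 TPM in 3 or more of the 7 libraries, 575 were higher by the rule in shCTRL cells, which is 4.08% of them, and 1139 were lower, which is 8.07%. Of all these calls, 33.5 percent were in the higher direction, and 43.9 percent after quantile normalization (719 higher and 917 lower). The median difference of all 14108 genes was -0.16, and the median over 14 reference genes such as Ywhaz and Eef2 was 0.03, with none of the 14 called. Rescaling moved the median of all genes to between -0.26 and 0.015.

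Genes of the epithelial state were low or near 0 in the shCTRL libraries. Of 31 genes for epithelial junctions and polarity, 26 were lower in shCTRL cells by the rule and none was higher, against a background of 8.07%. Their median difference was -4.69, and 29 of the 31 passed the filter on low values. Summed over the list, the level was 71.7 to 77.8 TPM in shCTRL libraries and 2413 to 2667 TPM in week 4 libraries. Most defining markers of an epithelial tumor cell were thus near 0 in the shCTRL libraries, with Krt18 as an exception given below, and the cells are called shCTRL cells here without a cell type.

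Epcam, which encodes an epithelial adhesion molecule, was at 0.653, 0.560 and 0.864 TPM in the shCTRL libraries and 561, 513, 475 and 567 TPM in the week 4 libraries. Its difference was -8.29. Cdh1 encodes E-cadherin, the adhesion protein of adherens junctions. It was at 2.01, 1.56 and 1.41 TPM in shCTRL cells and 149, 187, 136 and 164 TPM at week 4, a difference of -5.91. The tight junction gene Cldn3 was listed at 0, 0.131 and 0 TPM in shCTRL cells, against 154, 180.2, 123 and 196 TPM at week 4. For Cldn7, of the same claudin family, the values were 0.556, 0.908 and 1.68 TPM and 59.2, 64.5, 55.2 and 58.2 TPM. In each of these 4 genes every shCTRL library lay far below every week 4 library. Cd24a, a surface glycoprotein gene, and Rab25, a regulator of vesicle recycling in epithelia, had differences of -7.27 and -6.71. Among the members that were not called, Jup, which encodes plakoglobin, and the desmosome gene Pkp3 kept a level in shCTRL cells. Jup was at 42.4, 44.5 and 45.2 TPM against 132, 140.4, 119.9 and 129 TPM, and Pkp3 at 17.0, 16.8 and 17.7 TPM against 68.3, 64.7, 58.0 and 61.7 TPM, lower without overlap but by less than 4-fold. Dsc2 and Crb3 were low in both groups.

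**Figure D1:**
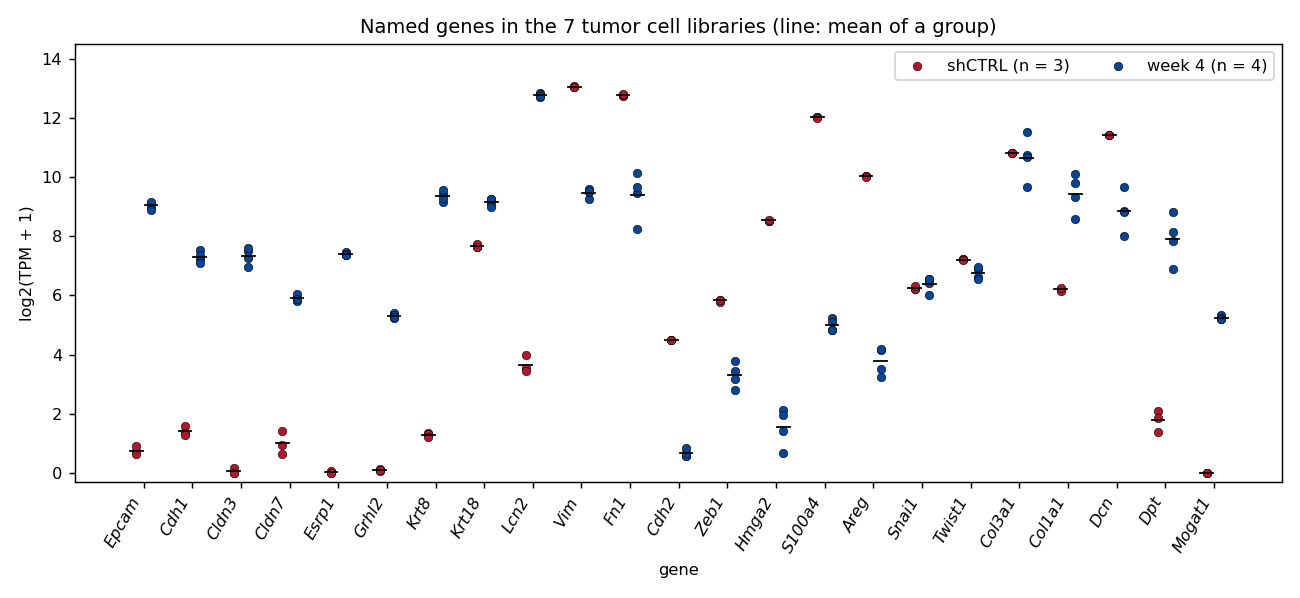
Level of 23 genes in each library as log2(TPM + 1), with shCTRL libraries in red (n = 3), week 4 libraries in blue (n = 4) and a black line at the mean of each group. The 8 genes from Epcam to Krt18, and Lcn2, lie lower in shCTRL cells, Vim to Areg lie higher, and the ranges of Col3a1 overlap.

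The 250 bases before the start site of 3 junction genes lower in shCTRL cells are shown because they hold E-box elements of the kind that ZEB and SNAIL repressors are known to bind. They come from RefSeq (GRCm38.p6), are written 5′ to 3′ on the strand of the gene, and the capitals mark the letters CACCTG or CAGGTG, which are reverse complements of each other, so both strands are covered. Epcam lies on chromosome 17, plus strand, chr17:87635729-87635978; Lsr, a tricellular junction gene, on chromosome 7, minus strand, chr7:30973470-30973719; and the claudin gene Cldn4 on chromosome 5, minus strand, chr5:134946935-134947184.
Epcam: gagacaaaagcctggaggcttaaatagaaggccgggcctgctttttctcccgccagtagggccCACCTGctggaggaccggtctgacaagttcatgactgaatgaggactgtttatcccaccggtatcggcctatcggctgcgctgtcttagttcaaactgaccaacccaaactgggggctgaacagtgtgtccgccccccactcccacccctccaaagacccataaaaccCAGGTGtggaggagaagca
Lsr: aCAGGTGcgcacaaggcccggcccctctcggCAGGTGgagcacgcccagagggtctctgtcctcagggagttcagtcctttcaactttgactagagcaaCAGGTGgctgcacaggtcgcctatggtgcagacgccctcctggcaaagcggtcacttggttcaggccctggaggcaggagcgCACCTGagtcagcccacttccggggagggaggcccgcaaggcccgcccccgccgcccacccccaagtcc
Cldn4: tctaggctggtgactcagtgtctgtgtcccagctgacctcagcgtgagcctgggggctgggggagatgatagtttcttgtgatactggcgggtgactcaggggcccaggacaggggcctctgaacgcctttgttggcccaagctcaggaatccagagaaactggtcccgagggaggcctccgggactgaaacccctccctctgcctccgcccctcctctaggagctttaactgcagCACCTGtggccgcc
The matches begin -187 and -19 bases from the Epcam start site, -249, -219, -151 and -69 bases from that of Lsr and -14 bases from that of Cldn4. The Lsr level was 0.869, 1.06 and 0.363 TPM in shCTRL cells and 153, 149.9, 134 and 146 TPM at week 4, and that of Cldn4 was 0.149, 0.182 and 0 TPM and 12.1, 28.4, 12.8 and 24.1 TPM.

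Such an E-box was present in 4394 of 22497 (19.5%) of all genes with a window of this length and a row in the tables. Among the genes lower in shCTRL cells it was present in 238 of 788 (30.2%), among those higher in 88 of 404 (21.8%), and among the genes that passed the filter in 1890 of 10332 (18.3%). Of the 97 genes of the epithelial lists, 57 had a window, and 29 of the 57 (50.9%) held such an E-box. Of the 70 genes of the mesenchymal lists, 44 had a window, and 5 of the 44 (11.4%) held one. The genes lower in shCTRL cells include members of the epithelial lists, and a role of a repressor was not tested. The AP-1 element (TGACTCA or TGAGTCA), bound by FOS and JUN proteins, was present in 37 of 404 (9.16%) of the higher genes, 43 of 788 (5.46%) of the lower genes and 463 of 10332 (4.48%) of the genes that passed the filter. In the Lsr promoter the E-box at -69 runs into an AP-1 match and shares its last letters. The Cldn4 sequence also holds TGACTCA, at separate places that are not marked, and the Epcam sequence holds neither AP-1 form. A match describes these letters and is not a measured binding site.

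Most regulators of the epithelial state were low as well. Of 21 genes for epithelial transcription and splicing regulators, 13 were lower by the rule and none was higher, with a median difference of -3.78. The rest were not called, and 3 members had a positive difference, the highest 0.974. Summed over the list, the level was 286 to 292 TPM in shCTRL libraries and 1357 to 1447 TPM in week 4 libraries. Esrp1, whose protein directs epithelial splice forms, was at 0.0339, 0 and 0 TPM in shCTRL cells and 175, 164, 168 and 163 TPM at week 4. Ehf, an ETS factor of epithelia, was at 0, 0 and 0.0625 TPM against 290.2, 228, 264 and 256 TPM, a difference of -7.99. These 2 genes were listed at 0 in 2 of the 3 shCTRL libraries. Grhl2, which maintains junction genes, was at 0.0451, 0.0828 and 0.0620 TPM against 41.3, 39.4, 36.8 and 37.6 TPM. Elf5, the factor of the milk-producing lineage, had a difference of -6.71, and Ovol1, known to oppose ZEB factors, one of -2.52 from a week 4 level of only 4.83 ± 0.359 TPM (SD, n = 4).

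Among keratins the filament partners parted. Krt8 was at 1.57, 1.46 and 1.31 TPM in shCTRL cells and 687, 754, 571 and 632 TPM at week 4, a difference of -8.07. Krt18, which pairs with Krt8 in simple epithelia, was still at 213, 199 and 198 TPM in shCTRL cells, against 547, 612, 512 and 609 TPM at week 4. The Krt18 ranges did not overlap, but its difference of -1.48 was under the 4-fold limit. Krt7 and Krt14 had differences of -5.51 and -4.55. Krt5, a basal keratin, was at 0, 0 and 0.0677 TPM in shCTRL cells and only 0.988, 1.21, 1.09 and 0.986 TPM at week 4. In all, 6 of 11 keratins were lower and none was higher. Of 18 basal and myoepithelial genes, 4 were lower, among them Krt17 (-5.88), and none was higher.

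Of 16 milk and secretory genes, 11 were lower and none was higher. Lcn2, which encodes the iron-siderophore carrier lipocalin 2, was at 10.7, 14.7 and 9.83 TPM in shCTRL cells and 7369, 6644, 7099.6 and 6884 TPM at week 4. Trf, which encodes transferrin, was at 12.8, 13.2 and 13.5 TPM against 7678, 7255, 6333 and 7763 TPM. Wfdc18, a small secreted protein gene, had the most negative difference of the named genes, -9.37, with 0, 0 and 0.273 TPM against 742, 658, 661 and 812 TPM. The luminal identity genes were mixed, with a median difference of -1.36. Of 18, 6 were lower, including Ly6d at -8.30, the receptor tyrosine kinase gene Kit at -6.45, and Prlr, the prolactin receptor gene, at -4.42. Summed over the list the level was higher in shCTRL cells, 1082 to 1106 TPM against 654 to 752 TPM. Most of the shCTRL sum came from Areg alone, with a mean of 1052 TPM, and 15 of the 18 members had a negative difference. Areg, the ligand amphiregulin, was the 1 member called higher. It was at 1061, 1059.7 and 1034 TPM in shCTRL cells and 10.5, 16.8, 8.51 and 17.2 TPM at week 4, a difference of 6.26.

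The remaining genes with the lowest values in shCTRL cells, chosen by size with a mean of at least 10 TPM at week 4, included Igfbp2 (-9.16) and Igfbp5 (-7.97), both for binding proteins of insulin-like growth factors. Col9a1 and Col9a2, chains of the cartilage type IX collagen, had differences of -8.12 and -7.58. Ptprf, a receptor phosphatase gene, had one of -7.57, and Mgst1, a glutathione transferase gene, one of -7.72. Cytl1 was listed at 0 in each shCTRL library and at 172, 255, 261 and 212 TPM at week 4. The chemokine gene Ccl20 was also listed at 0 in each shCTRL library, against 246, 198, 113 and 180.5 TPM at week 4. A count of 0 allows up to 0.254 TPM of Cytl1 and 0.309 TPM of Ccl20 in a shCTRL library (3 reads, counting error only). Where both mates of a read pair were counted, reads are not independent, and the limits for a count of 0 given here and below are too low.

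Mesenchymal genes were high in shCTRL cells, though unevenly. The 70 genes of 3 mesenchymal lists had a median difference of 1.12, against -3.28 for the 97 genes of the 5 epithelial lists and -0.16 for all genes. Of the 70, 20 were higher by the rule, against a background of 4.08%, and 8 were lower, against 8.07%. Of the 20 higher genes, 16 were also higher by the rule between the CD8 T cell libraries of the same experiments, so 4 higher and 8 lower genes were left without genes called in both. For the epithelial lists, 52 of the 62 lower genes were left in this way. These counts cannot be set against each other, since 0.482% of genes were called lower between the CD8 T cell groups and 5.3% higher. The 62 genes were also low in week 4 CD8 T cells, at a median of 4.71 percent of their week 4 tumor cell mean. The part of what the experiments share was not tested further. The mean log2(TPM + 1) of the 70 genes was 6.54 to 6.56 in the shCTRL libraries and 5.17 to 6.05 in the week 4 libraries. For the 97 epithelial genes it was 1.18 to 1.20 and 4.56 to 4.67. The groups stood further apart on the epithelial than on the mesenchymal genes, and the week 4 libraries also expressed the mesenchymal lists, lowest in replicate 1 and highest in replicate 4.

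**Figure D2:**
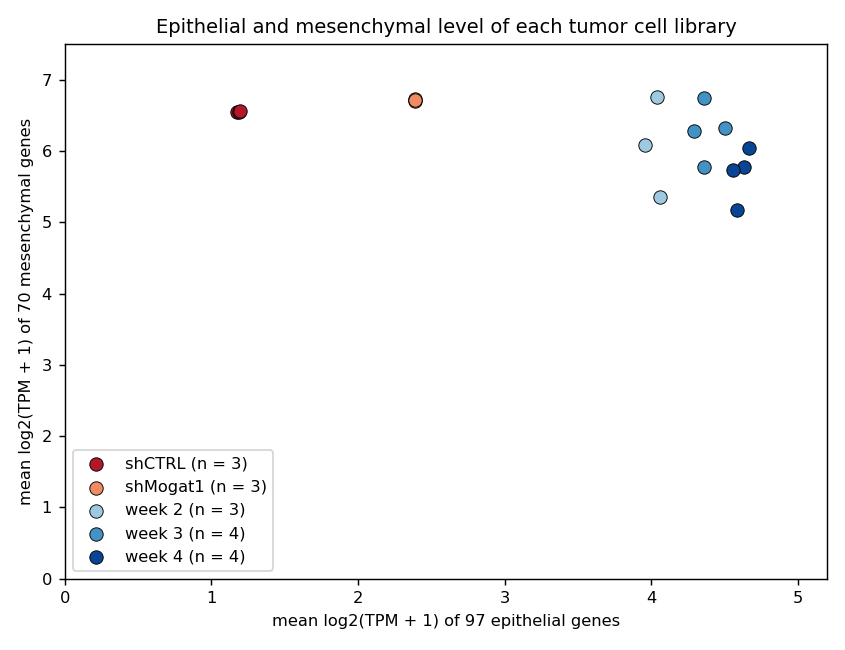
Each point is 1 of the 17 tumor cell libraries, with the mean log2(TPM + 1) of 97 epithelial genes on the horizontal axis and of 70 mesenchymal genes on the vertical axis, coloured by group. The 3 shCTRL libraries lie at 1.18 to 1.20 on the horizontal axis and the 4 week 4 libraries at 4.56 to 4.67, with the shMogat1 libraries and then weeks 2 and 3 in between.

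Of 18 mesenchymal transcription regulators, 5 were higher by the rule (Twist2, Zeb1, Prrx2, Foxc2 and Hmga2) and none was lower. Zeb1, the repressor of epithelial genes, was at 57.0, 54.1 and 56.4 TPM in shCTRL cells and 5.91, 10, 7.99 and 12.6 TPM at week 4, a difference of 2.53. Its relative Zeb2 was at 29.6, 29.1 and 31.5 TPM against 8.54, 12.9, 12 and 13.5 TPM, with no overlap but a difference of only 1.30. Twist2 was called just over the limit, with a difference of 2.00. The other classical inducers Snai1, Snai2 and Twist1 differed by less than 4-fold or overlapped. Snai1 was at 72.9, 73.0 and 77.9 TPM in shCTRL cells and 84.0, 93.1, 63.5 and 93.1 TPM at week 4, and the ranges overlapped. Snai2 was at 11.6, 11.3 and 12.3 TPM against 9.50, 10.6, 15.5 and 7.03 TPM, also overlapping. Twist1 was at 149.5, 148 and 145 TPM against 97.0, 119, 92.9 and 124 TPM, without overlap and with a difference of 0.45. Hmga2, an architectural chromatin protein of embryonic and mesenchymal cells, had the largest difference of the list, 6.99, with 366, 369 and 375 TPM against 1.70, 3.32, 0.604 and 2.86 TPM.

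Of 23 genes for mesenchymal adhesion and cytoskeleton, 9 were higher and 3 were lower, with a median difference of 1.68. Vim, the intermediate filament of mesenchymal cells, was at 8561, 8449 and 8521 TPM in shCTRL cells and 608, 729, 766 and 738 TPM at week 4. The ratio of the means was 12-fold (8511 ± 56.5 TPM (SD, n = 3) against 710.4 ± 70.0 TPM (SD, n = 4)). Cdh2, which encodes N-cadherin, was at 21.7, 21.3 and 21.8 TPM against 0.478, 0.496, 0.606 and 0.780 TPM, a difference of 3.83. S100a4, a calcium-binding protein of motile cells, was at 4146, 4184 and 4093 TPM against 36.7, 33.6, 27.6 and 27.1 TPM, a difference of 7.01. Inhba, an activin subunit, and Nt5e, the ectonucleotidase CD73, had differences of 6.0 and 4.68. The receptors Pdgfra and Pdgfrb had differences of 2.31 and 2.74, and Cdh11, a mesenchymal cadherin, was just under the limit at 1.97. In the other direction, Thy1 (-4.54), Itga11 (-2.75) and Fap (-2.79), used as markers of fibroblasts, were lower in shCTRL cells.

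The matrix genes divided. Of 29 collagens and other matrix genes, 6 were higher and 5 were lower in shCTRL cells. Fn1, which encodes fibronectin, was at 6888, 7061 and 7177 TPM in shCTRL cells and 304, 708, 803 and 1138 TPM at week 4, a difference of 3.40. Timp1 and Timp3, inhibitors of metalloproteinases, had differences of 3.34 and 2.87. Col1a1, a chain of type I collagen, was at 73.0, 70.6 and 75.1 TPM in shCTRL cells against 378, 882, 634 and 1094 TPM at week 4. Its partner chain gene Col1a2 was at 23.5, 23.5 and 25.5 TPM against 372, 826, 664 and 1111 TPM. Both type I chains were thus lower in every shCTRL library, with differences of -3.23 and -4.78. Col3a1, of type III collagen, did not differ in this way, with 1787, 1795 and 1796 TPM against 814, 1715, 1625 and 2931 TPM and overlapping ranges. Thbs1, which encodes the matrix protein thrombospondin 1, was at 19.4, 20.3 and 19.8 TPM in shCTRL cells and 1994, 1841, 1889 and 2218 TPM at week 4, a difference of -6.57.

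Markers of resident fibroblasts, which a tumor cell preparation can hold, were split as well: 9 of 14 were lower in shCTRL cells and 4 were higher. Dpt, which encodes dermatopontin, was at 3.29, 2.62 and 1.63 TPM in shCTRL cells and 117, 228, 280.2 and 447 TPM at week 4, a difference of -6.13. Clec3b and Mfap5 had differences of -5.99 and -5.43. Lum, the proteoglycan lumican, was at 18.5, 17.3 and 18.3 TPM against 79.1, 162, 107 and 267 TPM. Dcn, the related proteoglycan decorin, went the other way, with 2735, 2748 and 2764 TPM in shCTRL cells against 254, 466, 454 and 815 TPM at week 4. No marker of the list was at 0 in all libraries of a group. At week 4 the list summed to 1056 to 3236 TPM, lowest in replicate 1 and highest in replicate 4. Col1a1, Col1a2, Dpt, Dcn and Lum were also lowest in replicate 1 and highest in replicate 4. In the shCTRL libraries it summed to 4079.6 to 4107 TPM, with Dcn as the highest member.

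**Figure D3:**
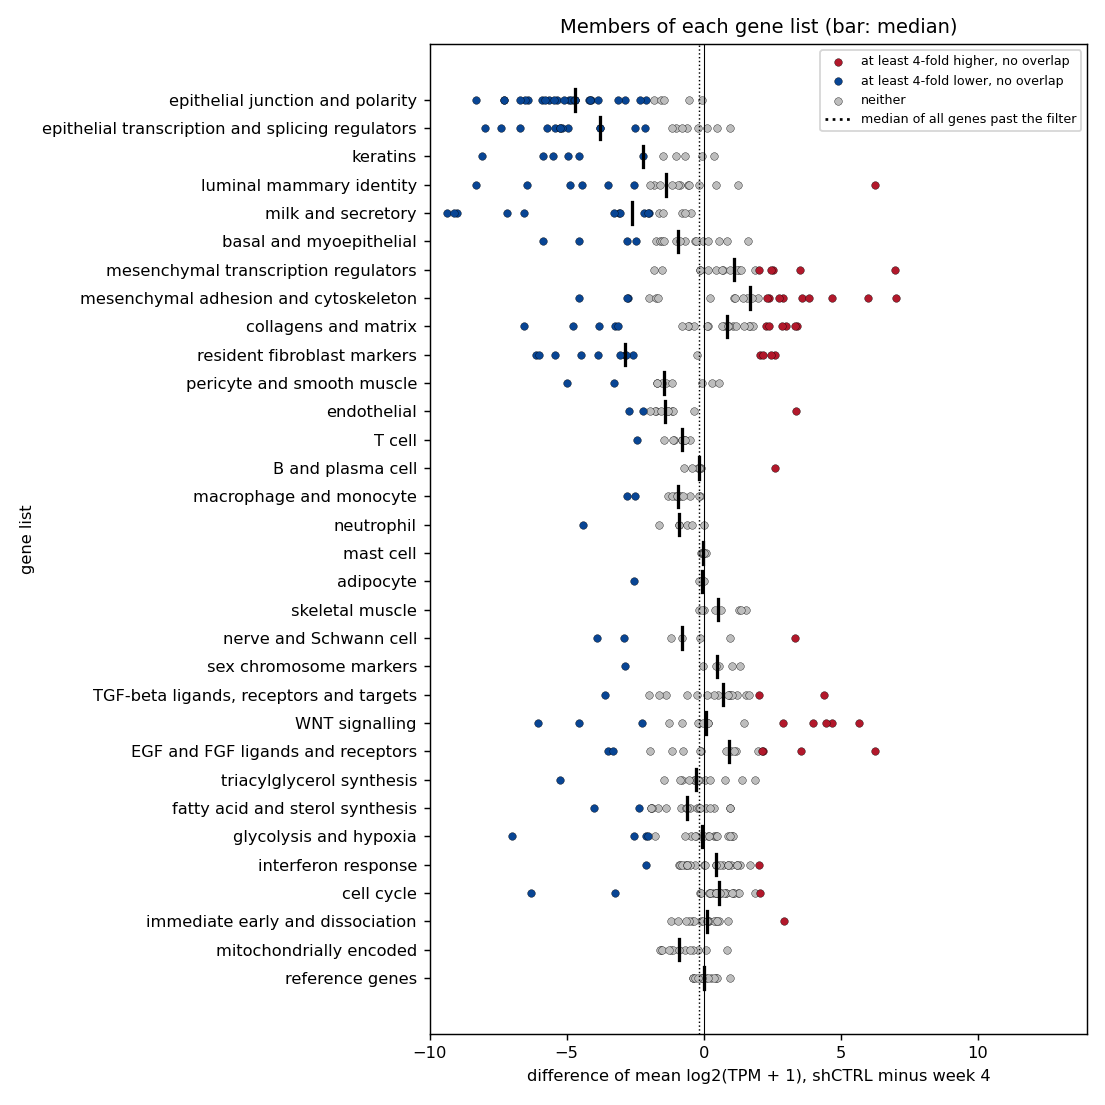
Difference of mean log2(TPM + 1), shCTRL minus week 4, for every matched member of 32 gene lists; red and blue points passed the rule for a large difference, grey points did not, the bar is the list's median and the dotted line the median of all 14108 genes. The junction list has its median at -4.69 and the adhesion and cytoskeleton list at 1.68, while fibroblast and matrix genes spread to both sides.

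Markers of vessels and leukocytes were measured in both groups, at levels that differed by gene. Of all genes, 4.08% were called higher and 8.07% lower, together 12.1%, so 1 or 2 calls in such short lists are not read as a result. Rgs5, a pericyte gene, was at 0.193, 0.327 and 0.702 TPM in shCTRL cells and 23.7, 40.6, 102 and 35.8 TPM at week 4, and 2 of 10 pericyte and smooth muscle genes were lower. Among 12 endothelial genes, 2 were lower and Cdh5 was higher. Cdh5, VE-cadherin, was at 56.3, 57.2 and 61.8 TPM in shCTRL cells against 4.67, 6.18, 5.81 and 2.86 TPM, while Pecam1, another endothelial junction gene, was at 2.85, 2.25 and 2.95 TPM against 7.20, 9.59, 9.18 and 6.35 TPM. The pan-leukocyte gene Ptprc was at 4.02, 4.28 and 3.86 TPM in shCTRL cells and 19.2, 17.8, 3.13 and 8.33 TPM at week 4, with overlap. Csf1r, of macrophages, was at 11.2, 9.77 and 10.2 TPM against 31.2, 38.3, 6.98 and 15.1 TPM, also with overlap. Cd3e, of T cells, was at 0.843, 0.706 and 0.147 TPM against 5.36, 5.35, 7.13 and 13.2 TPM. Cd14, a receptor gene of monocytes, was at 68.3, 63.8 and 67.8 TPM in shCTRL cells and 524, 545, 360.2 and 493 TPM at week 4, lower in shCTRL cells without overlap. It was 1 of 2 macrophage genes called, both lower. The summed level of 12 macrophage genes was 374 to 402 TPM in shCTRL and 573 to 1739 TPM in week 4 libraries, and that of 10 T cell genes was 5.22 to 7.29 and 18.1 to 45.5 TPM. Their part in the differences was not tested. Of the 7 neutrophil genes only S100a8 was called, lower at -4.39, and of the 6 adipocyte genes only Fabp4, lower at -2.55. Among 7 nerve and Schwann cell genes S100b was higher, and Gfap and Mbp were lower. Jchain was the 1 of 7 B and plasma cell genes that was called, and it was higher. No member of the 6 mast cell or the 8 skeletal muscle genes was called.

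The genes furthest above week 4, chosen by size with a mean of at least 10 TPM in shCTRL cells, included secreted and surface proteins. Dynap, a membrane protein gene, had the largest difference, 8.75, with 494, 491 and 483 TPM in shCTRL cells against 0.141, 0.288, 0 and 0.141 TPM at week 4. Il1rl1, the receptor of interleukin 33, was at 850.3, 877 and 847 TPM against 0.801, 1.49, 1.41 and 3.22 TPM, a difference of 8.37. Grem1, an antagonist of bone morphogenetic proteins, was at 332, 347 and 344 TPM against 0, 0.298, 0 and 0.194 TPM. Aqp1, a water channel gene, was at 3318, 3312 and 3360.3 TPM against 10.2, 12.4, 10.8 and 8.89 TPM, and Crabp1, a carrier of retinoic acid, at 943, 957 and 999.8 TPM against 0.755, 2.20, 4.78 and 3.01 TPM. Each of these 5 genes was near 0 or low in all week 4 libraries and high in all shCTRL libraries. Msln, which encodes mesothelin, was at 109, 113 and 117 TPM in shCTRL cells and listed at 0 in each week 4 library, where a count of 0 allows up to 0.129 TPM. Prl2c3, a prolactin family gene, was also listed at 0 in each week 4 library and at 98.1, 69.8 and 76.8 TPM in shCTRL cells; its near-identical family members can share reads, so this value is uncertain. The other genes in this group were Sh3gl3 (6.64), Padi4 (6.44), Nppb (6.43), Plxdc1 (6.40) and the guidance factor Sema3a (6.28), besides S100a4, Hmga2 and Areg. Leaving out 1 shCTRL library put Dynap, Grem1, Msln, Sh3gl3, Padi4, Nppb, Prl2c3, Sema3a and Cdh2 under the filter, since only 2 libraries then reached 1 TPM, so these 9 rest on all 3 shCTRL libraries.

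In the signalling, metabolic and response lists that follow, the background of calls in either direction was 12.1% of all genes. Of 16 EGF and FGF ligands and receptors, the ligands Areg, Btc, Fgf2 and Hgf were higher in shCTRL cells and the receptors Erbb3 (-3.47) and Fgfr3 (-3.31) were lower. Egfr, the receptor of Areg and Btc, differed little, at -0.11. Of 16 WNT genes, 5 were higher and 3 were lower. The ligand Wnt5a was at 67.1, 68.0 and 66.7 TPM in shCTRL cells against 0.661, 2.57, 2.22 and 1.55 TPM, and Wnt10a and the antagonists Dkk2 and Dkk3 were also higher (4.48, 5.68 and 3.98). The antagonists Sfrp1 and Sfrp2 were lower (-6.05 and -4.55). Of 18 matched genes of TGF-beta signalling, a known inducer of the mesenchymal state, Smad3 and Ankrd1 were higher and the receptor gene Acvrl1 was lower; the ligand Tgfb1 had a difference of 1.20 and its receptor Tgfbr2 one of 0.54.

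Metabolic lists held few calls. In that of glycolysis and hypoxia, 4 of 20 genes were lower, against 8.07% of all genes, but only 2 after median-of-ratios rescaling. The median difference of that list was -0.05, with 10 positive and 10 negative members. Of 16 genes of triacylglycerol synthesis only Mogat1, the target of the study's other hairpin, was called. Mogat1 encodes a monoacylglycerol acyltransferase, which makes diacylglycerol. It was listed at 0 in each shCTRL library, which allows up to 0.180 TPM, and was at 39.6, 36.9, 35.8 and 36.0 TPM at week 4. Its levels were 2.28 ± 1.45 TPM (SD, n = 3) at week 2 and 0.433 ± 0.253 TPM (SD, n = 3) in the shMogat1 cells, so the 3 libraries labelled as control had no recovered read of the gene that the other hairpin targets. Among 19 genes of fatty acid and sterol synthesis, Srebf1, the lipogenic transcription factor, and Fads2, a desaturase, were lower (-4.01 and -2.35). Aldoc, an aldolase of glycolysis, had the largest difference in size of 20 glycolysis and hypoxia genes, at 1.83, 0.976 and 1.39 TPM in shCTRL cells against 339, 307, 275 and 281 TPM, and Egln3, Car9 and Ddit4 were also lower. Of 24 interferon response genes Usp18 was higher and Cxcl9 lower, and of 18 immediate early genes Fosb was higher (2.94). The 2 of 24 and 1 of 18 called in these lists are below the 12.1% of all genes. The calls of Smad3 (2.01), Car9 (-2.12), Cxcl9 (-2.10), Usp18 (2.03), Cd3e (-2.43), Emcn (-2.23) and Cdkn1a (2.06) were each lost under at least 1 other scaling or without 1 library. Single calls were followed in this way only for the genes chosen by the naming rule given below. Other list members near the limit, such as Twist2 (2.00) and Ddit4 (-2.03), were not followed. The lower milk and secretory genes fell from 11 to 9 after median-of-ratios rescaling and to 8 after quantile normalization.

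Of 24 cell cycle genes 3 were called, near the share of all genes. The inhibitor Cdkn1a was higher (2.06), and Cdkn2a and Cdkn2b were lower. Cdkn2a, which encodes the inhibitors p16 and p19ARF, was listed at 0 in each shCTRL library and was at 85.3, 89.8, 53.5 and 91.2 TPM at week 4. Its 4111 reads over the 4 week 4 libraries stood against 0 reads over the 3 shCTRL libraries, which allows up to 0.218 TPM in a library. Cdkn2b, its neighbour on chromosome 4 (mm10, 89274473 to 89294619 for Cdkn2a and 89306289 to 89311032 for Cdkn2b), was likewise listed at 0 in each shCTRL library and at 6.65, 11.7, 5.43 and 11.2 TPM at week 4. Mtap, a gene of methionine salvage on the other side of Cdkn2a (89137370 to 89181090), was 10.9-fold higher in shCTRL cells, at 659, 657 and 653 TPM against 57.9, 68.3, 55.9 and 59.1 TPM. Of 45 RefSeq genes with a row within 1 Mb of Cdkn2a, 8 passed the filter. Klhl9, further along, was at 61.0, 57.7 and 59.5 TPM in shCTRL cells and 60.5, 61.3, 67.2 and 58.5 TPM at week 4, with overlapping ranges. Within 1 Mb, the genes called by the rule were the 3 neighbours Mtap, Cdkn2a and Cdkn2b. Gm12610, a transcript whose span (89295180 to 89518621) includes Cdkn2b, did not pass the filter. It had 8, 13 and 9 reads in the shCTRL libraries and 25, 10, 14 and 13 reads in the week 4 libraries. Gm12602, an unnamed transcript beyond Mtap, was below the limit at 1.84, with 2.84, 2.95 and 3.22 TPM in shCTRL cells against 0.145, 0.0987, 0.0536 and 0.193 TPM. The counting strand is not given in the sources used here, so reads of overlapping genes cannot be told apart. In the shMogat1 cells, Cdkn2a was at 12.3 ± 1.01 TPM (SD, n = 3) and Mtap at 872 ± 6.58 TPM (SD, n = 3).

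**Figure D4:**
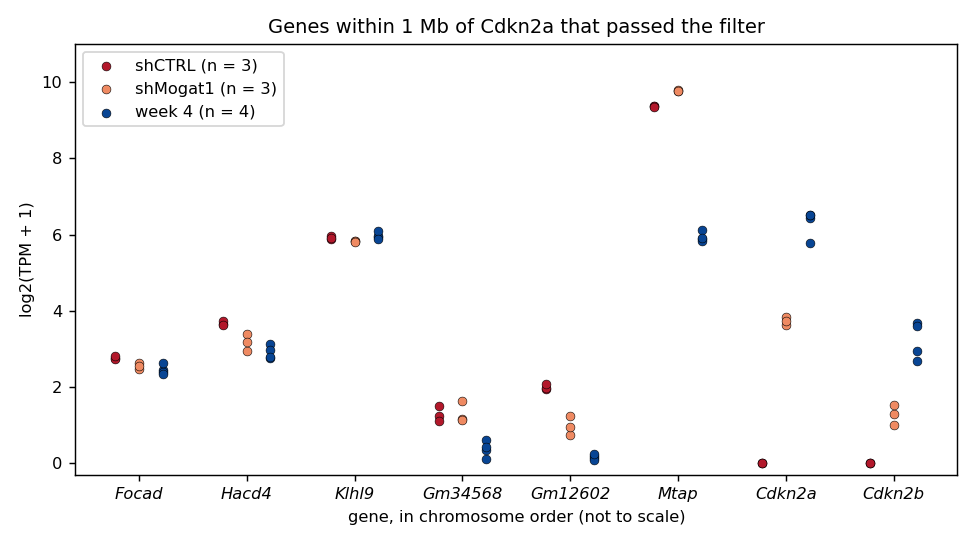
Level as log2(TPM + 1) in each library of shCTRL (red, n = 3), shMogat1 (orange, n = 3) and week 4 (blue, n = 4) tumor cells for the 8 genes within 1 Mb of Cdkn2a that passed the filter, in chromosome order. Cdkn2a and Cdkn2b are at 0 in the shCTRL libraries, Mtap is highest in the hairpin libraries and Klhl9 lies between 54.9 and 67.2 TPM in all 3 groups.

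The other tumor cell groups were read on the same genes, as a description. The 62 epithelial genes called lower were chosen for the gap between shCTRL and week 4 cells. Their low shCTRL share was therefore set by that choice. In these genes the shCTRL mean was a median of 0.205 percent of the week 4 mean. The shMogat1 mean was 4.85 percent, the week 2 mean 45.4 percent and the week 3 mean 74.1 percent. Epithelial genes taken only for a week 4 mean of at least 10 TPM also numbered 62. Their medians were 0.395 percent in shCTRL, 6.38 percent in shMogat1, 45.9 percent in week 2 and 77.1 percent in week 3 cells. Their shCTRL values ran from 0 to 7921 percent. Epcam was at 29.6 ± 1.17 TPM (SD, n = 3) in shMogat1, 305 ± 70.3 TPM (SD, n = 3) in week 2 and 458 ± 57.7 TPM (SD, n = 4) in week 3 cells. Krt18 was an exception, at 860.3 ± 22.8 TPM (SD, n = 3) in the shMogat1 cells, above week 4. Over all 70 mesenchymal genes the mean log2(TPM + 1) was 6.70 to 6.73 in the shMogat1 libraries, above every shCTRL library. It was 5.36 to 6.75 in week 2 and 5.78 to 6.75 in week 3 libraries, and the highest library of each also lay above the shCTRL libraries. The 15 genes furthest above week 4, chosen for that gap, stood in shMogat1 cells at a median of 76.9 percent of their shCTRL mean, in week 2 cells at 21.5 percent, in week 3 cells at 9.61 percent and in week 4 cells at 0.202 percent. Hmga2 was at 117, 108 and 46.3 TPM in the 3 week 2 libraries, and Vim at 5968, 4912 and 2015 TPM. These libraries differed among themselves by more than the week 4 libraries did. The shCTRL libraries correlated with the shMogat1 libraries at 0.977 to 0.979 and with the week 2 libraries at 0.856 to 0.896.

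CD8 T cells of the shCTRL xenografts (n = 3) and of week 4 (n = 3) were compared in the same way, since their libraries share the experiments but not the labelled cell type. Of 13698 genes, 726 were higher in the CD8 T cells from shCTRL xenografts (5.3%) and 66 were lower (0.482%), together 5.78%. The genes higher in both comparisons numbered 257, which is 44.7 percent of the higher genes of the tumor cells and 35.4 percent of those of the CD8 T cells. Without those 257 genes, 318 higher genes were left in the tumor cells. The genes lower in both numbered 32, which is 2.81 percent of the tumor list and 48.5 percent of the CD8 list. Fn1 was at 1446 ± 26.4 TPM (SD, n = 3) in CD8 T cells of the shCTRL xenografts and 8.43 ± 3.13 TPM (SD, n = 3) in those of week 4, Hmga2 at 68.9 ± 4.63 TPM (SD, n = 3) and 0.401 ± 0.135 TPM (SD, n = 3), and Areg at 188 ± 10.9 TPM (SD, n = 3) and 7.18 ± 2.80 TPM (SD, n = 3). The 15 genes furthest above week 4 in tumor cells were present in CD8 T cells of the shCTRL xenografts at a median of 18.6 percent of their level in shCTRL tumor cells. Of the 70 mesenchymal genes, 50 were higher by the rule between the CD8 T cell groups and none was lower; of the 97 epithelial genes, 3 were higher and 10 were lower. The part of tumor cell RNA in these CD8 libraries was not tested. Col1a1 and Col1a2, lower in shCTRL tumor cells, were higher in the CD8 T cells of the shCTRL xenografts, where Col1a1 was at 188 ± 10.7 TPM (SD, n = 3) against 5.92 ± 0.847 TPM (SD, n = 3).

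**Figure D5:**
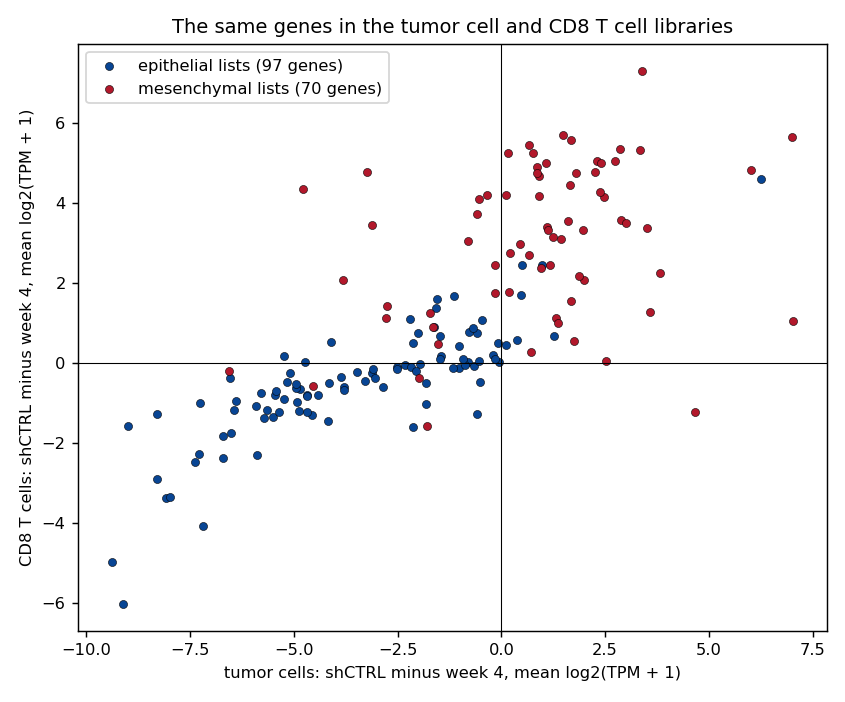
Difference of mean log2(TPM + 1), shCTRL minus week 4, in tumor cells (horizontal) and in CD8 T cells (vertical) for 97 epithelial genes (blue) and 70 mesenchymal genes (red). Most epithelial genes lie left of 0 with smaller values in CD8 T cells, while 65 of the 70 mesenchymal genes lie above 0 in CD8 T cells.

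Genes of the sex chromosomes gave a further difference between libraries of both experiments. Ddx3y, which lies on the Y chromosome, was at 128, 124 and 129.7 TPM in shCTRL tumor cells and 48.4, 59.8, 46.4 and 49.7 TPM at week 4. In CD8 T cells it was at 22.6 ± 3.72 TPM (SD, n = 3) in the shCTRL xenografts and 4.43 ± 3.14 TPM (SD, n = 3) at week 4. The 4 Y-linked genes Ddx3y, Kdm5d, Eif2s3y and Uty stood in CD8 T cells at a median of 20.4 percent of their tumor cell level in the shCTRL set and 6.38 percent at week 4. Xist, made from the inactive X chromosome, was at 1.78, 1.93 and 2.22 TPM in shCTRL tumor cells, 14.4, 26.3, 20.4 and 23.8 TPM at week 4, 149 ± 22.9 TPM (SD, n = 3) in CD8 T cells of the shCTRL xenografts and 270.4 ± 35.0 TPM (SD, n = 3) in those of week 4. Xist was thus low and Ddx3y high in the tumor cell libraries, and the reverse held in the CD8 T cell libraries of both experiments.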

How the data were processed

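RNA of tumor cells was extracted with TRIZOL and made into stranded mRNA libraries, per the labels' protocols. Per the submitters' processing notes, FastQC, Trim Galore, HISAT2 and the mm10 build were used. The counting program, its strand setting, the annotation and the gene lengths are not given in the sources used here. The authors deposited TPM per gene symbol in 4 tables of 33681 rows each, 1 for each cell type and experiment. In each, 27 rows whose symbols had become dates were left out (at most 0.184% of TPM), and 33654 genes were joined by symbol.

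Levels were set as log2(TPM + 1). Genes with at least 1 TPM in 3 or more of the 7 libraries were kept, and a large difference was 4-fold or more without overlap of the groups. No test was made, since the tables were scaled apart. Reads were recovered for 30911 genes as whole multiples of the smallest TPM step in a library (tolerance 0.05). They were used for depth, counting noise and the limit that a count of 0 allows (3 reads), and for no count test. The rule for the genes named took fixed anchor genes, the 15 largest differences in each direction with a mean of at least 10 TPM that held under each scaling and pseudocount, and the 3 largest of each of 32 lists. Other list members are named as well, after their values were seen (Prlr, Rab25, Lsr, Cldn4, Jup, Pkp3, Dsc2, Crb3, Twist2, Prrx2, Thy1, Itga11, Fap, Timp1, Timp3, Fgf2, Hgf, Fgfr3, Egfr, Wnt10a, Dkk3, Sfrp2, Tgfb1, Tgfbr2, Ddit4, Eif2s3y and Kdm5d), and so are the neighbours of Cdkn2a. Of the list members, 3 had no row. The members and lists were chosen with earlier results of these data known. Alternatives were median-of-ratios and quantile scaling, TPM without mitochondrially encoded genes, a pseudocount of 0.1, no filter, an 8-fold limit, leaving out genes called between the CD8 tables, and leaving out each library. The mean of the shCTRL libraries as 1 sample and a minimum of 20 reads were added after seeing the data. Scripts were tested on simulated data and ran in Python 3.11.15 with numpy 2.4.6, pandas 2.3.3, scipy 1.17.1 and matplotlib 3.10.9. Promoters and gene positions are from RefSeq GRCm38.p6, which is the mm10 build.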

Additional observations from a re-analysis of the deposited data

Results flagged for a closer look

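In 7 of 124 genes named or listed, 1 of the 4 week 4 libraries stood apart from the others by Dixon's criterion for 4 values at the 95% level, and chance alone gives this in about 1 in 20 groups. In replicate 3 of week 4, the mitochondrially encoded genes COX1 (63466 TPM), ND1 (27101 TPM) and ND4 (11290 TPM) were highest, and Cdkn2a was lowest (53.5 TPM). In replicate 4 of week 4, the receptor gene Kit was highest at 114 TPM, and so was Fabp4, a fatty acid carrier of adipocytes, at 40.7 TPM. In replicate 1 of week 4, Cd24a was highest at 488 TPM. For each of these genes except Cdkn2a the library lay above the other 3 of its group.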

How the results depend on the processing

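No alternative turned the direction of either list median or of a named gene with a large difference. With an 8-fold limit, 247 genes were higher and 579 lower in shCTRL cells. With a pseudocount of 0.1, 1863 genes were lower, and 829 were higher. Without the genes called the same way between the CD8 T cell tables, 318 were higher. The median difference of the epithelial lists was -3.28, and it was -3.06 after quantile normalization, -3.44 without mitochondrially encoded genes and -5.46 with a pseudocount of 0.1. Leaving out 1 library at a time gave 441 to 598 higher genes, 1124 to 1147 lower genes, an epithelial median of -3.45 to -3.18 and a mesenchymal median of 0.93 to 1.22. Of the 135 to 141 higher genes lost without 1 shCTRL library, 132 fell under the filter. Of 96 named genes with a large difference, 80 had it under each rescaling, pseudocount, filter and left-out library. Of the 96, 44 were called the same way between the CD8 T cell tables, and 46 of the 80 were not. Counting the shCTRL libraries as 1 sample by their mean, added after seeing the data, gave 575 higher and 1141 lower genes. A mean cannot lose a call made without overlap, so this does not check the effect of technical replicates. No paired analysis was possible because the groups come from separate experiments and no test was made. Depth limits the genes listed at 0, and with 3 and 4 libraries in separate tables the spread between tumors and between experiments is not known.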
